A study of Mus musculus with 24 samples.

Results

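The comparison described here set mouse CD8+ T cells activated in culture and then exposed to the bile acid UDCA (ursodeoxycholic acid) at 50 µM against the untreated control cells of the same experiment. Its members were chosen by the sample titles: 3 libraries titled UDCA and 3 titled Control, 6 of the 24 libraries in the series, described over 13044 tested genes of 24537 in the table. Exposure lasted 24 h by the series' design text and overnight by the treatment protocol. The labels name neither strain, genotype nor age of the mice, give no vehicle for the control, and do not tell whether replicates are separate mice or cultures, so p-values measure the spread between libraries, which may be technical. The other groups used below, at the same dose of 50 µM and also with 3 libraries each, were exposed to LCA (lithocholic acid), IsoLCA or DehydroLCA. The series addressed how bile acids affect gene expression in T cells.

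UDCA is a hydrophilic bile acid given as a medicine in cholestatic liver disease. Compared with LCA it carries an additional hydroxyl group on the steroid ring. IsoLCA has the hydroxyl group of LCA in the opposite orientation, and DehydroLCA has a ketone in its place. An activated CD8+ T cell takes up glucose and burns it by glycolysis, in part through hypoxia-inducible factors, makes its own cholesterol under the control of SREBP transcription factors, and fills granules with perforin and granzymes with which it kills target cells. Bile acids can also act on receptors, among them the nuclear receptor FXR (gene Nr1h4), the membrane receptor TGR5 (gene Gpbar1) and the vitamin D receptor (gene Vdr).

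The label of the cells was checked against marker genes. Of 14 tested T cell identity genes 10 were not called between the groups and 4 were higher with UDCA (2 without Control replicate 1, 1 without UDCA replicate 2). Cd8a, which encodes a chain of the CD8 coreceptor, was at 636, 616 and 626 CPM (counts scaled to the size of the library) in the control libraries and 734, 741 and 718 CPM with UDCA, while Cd4 stayed between 0.525 and 0.787 CPM in all 6. Of 9 B cell markers, 19 myeloid markers and 13 stromal and erythroid markers, 5, 11 and 9 had at most 10 counts in every one of the 6 libraries, and the myeloid genes S100a8, S100a9, C1qa and C1qb had none. The 9 B cell markers, 8 of them in the table, summed to 6.13 to 6.63 CPM in control and 5.32 to 6.66 CPM with UDCA, and the 8 gamma delta T cell markers, 3 of them in the table, to 0.372 to 0.497 and 0.484 to 0.56 CPM. Summed levels of the 19 myeloid markers were 51 to 52.5 CPM in control and 53.5 to 59.1 CPM with UDCA, nearly all of it Cst3. Those of the 13 stromal and erythroid markers were 49.2 to 55.7 and 39.4 to 42.5 CPM, mostly Pecam1, and those of the 12 natural killer cell markers were 1420 to 1460 and 1460 to 1550 CPM, mostly Il2rb. The 8 markers of CD4 and regulatory T cells summed to 2250 to 2500 and 1750 to 2130 CPM, nearly all of it Il2ra, which activated CD8+ T cells also express. The part of other cells in the results below was not tested. Counts in genes were 32308354.5 to 37269527.5 in control and 28713265 to 33411013.5 with UDCA, and exonic counts made up 81.1% to 83.8% and 80.4% to 82.2% of the library totals.

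UDCA changed many genes by small amounts. The largest changes were ranked among called genes with a mean of 10 CPM or more in either group and no overlap between the groups. Within this limit the falls included Vldlr, Pygl, P4ha2, Aldoc and Ndrg1, several of them genes of the hypoxia response and of glucose metabolism. The rises within it included Cd160, Egr3, Jdp2 and Nr4a3, a receptor of killer lymphocytes and several transcription factors. In the edgeR quasi-likelihood test at a Benjamini-Hochberg adjusted p under 0.05, the threshold for a call throughout, 1197 of 13044 genes were higher (9.18% of tested genes) and 1402 were lower (10.7%). A change beyond 2-fold was called higher for 20 genes (0.153%) and lower for 101 (0.774%). Of these 121, 11 had a mean of 10 CPM or more in either group. The middle 90% of all tested genes lay between log2 fold changes of -0.50 and 0.34, with a median of 0.01. Without Control replicate 2 the number of calls dropped from 2599 to 1692, and leaving out any of the other 5 libraries gave up to 2219. In these bulk libraries a lower level in each cell and fewer cells carrying an RNA cannot be told apart.

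**Figure D1:**
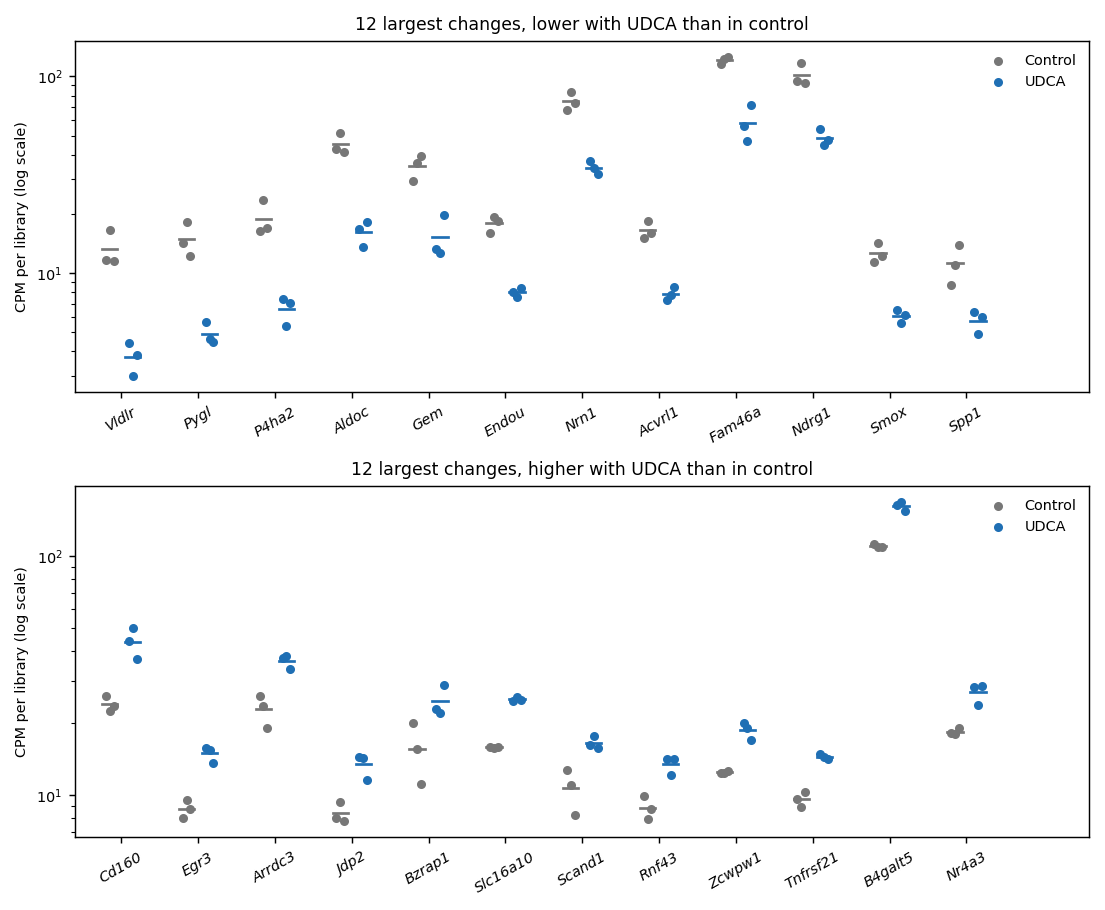
The 12 largest falls (upper panel) and 12 largest rises (lower panel) among called genes. Genes shown reached a mean of 10 CPM in either group and did not overlap between groups. Each library is a point, the group mean is a bar and CPM are on a log axis. Falls reach log2 fold changes of -1.82 (Vldlr), rises 0.86 (Cd160); Control replicate 2 is the highest point for Vldlr, Pygl, P4ha2 and Aldoc.

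Among the falls, Vldlr (chr19:27217020-27254231, plus strand of mm10), a lipoprotein receptor, was at 11.6, 16.5 and 11.6 CPM in the control libraries and at 4.41, 3.00 and 3.85 CPM with UDCA. All 3 UDCA libraries lay below the lowest control library, and the log2 fold change was -1.82 (SE 0.23, edgeR adjusted p = 2.7e-06). Pygl, the liver form of glycogen phosphorylase, went from 14.2, 18.2 and 12.2 CPM to 5.65, 4.63 and 4.44 CPM (log2 fold change -1.59, SE 0.20, edgeR adjusted p = 2.49e-06). P4ha2, a subunit of the collagen prolyl hydroxylase, had 16.3, 23.4 and 17.04 CPM in control and 7.38, 5.36 and 7.03 CPM with UDCA (log2 fold change -1.53). For both genes Control replicate 2 was the highest library and no UDCA library reached the control range. Nrn1, which encodes the surface protein neuritin, fell from 67.4, 83.3 and 73.3 CPM to 37.1, 34.2 and 31.9 CPM (log2 fold change -1.12). Fam46a fell from 116, 123 and 126 CPM to 55.7, 47.2 and 71.2 CPM (log2 fold change -1.07), with UDCA replicate 3 the nearest to control. The others among the 12 largest falls were Gem, a small GTPase (-1.21), Endou, an endoribonuclease (-1.17), Acvrl1, a receptor of the TGF-beta family (-1.08), Smox, which oxidises spermine (-1.05), and Spp1, osteopontin (-0.98).

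Among the rises, Cd160 (chr3:96798763-96814521, minus strand of mm10), a receptor found on cytotoxic lymphocytes, was at 26.1, 22.5 and 23.5 CPM in control and at 44.2, 49.8 and 37.0 CPM with UDCA. The groups did not overlap and the log2 fold change was 0.86 (SE 0.10, edgeR adjusted p = 7.88e-07). Egr3, an immediate early transcription factor downstream of the T cell receptor, rose from 7.99, 9.54 and 8.78 CPM to 15.8, 15.5 and 13.6 CPM (log2 fold change 0.77, SE 0.09, edgeR adjusted p = 1.43e-06). Slc16a10, a transporter of aromatic amino acids, had closely spaced libraries, 15.9, 15.7 and 15.96 CPM in control and 24.7, 25.7 and 24.9 CPM with UDCA (log2 fold change 0.66). B4galt5, a galactosyltransferase, was the most abundant of the 12, at 112, 109 and 109 CPM in control and 164, 168 and 154 CPM with UDCA (log2 fold change 0.56, SE 0.04, edgeR adjusted p = 9.26e-10). The others were Arrdc3 (0.68), Jdp2, a transcription factor of the AP-1 group (0.68), Bzrap1 (0.67), Scand1 (0.64), Rnf43 (0.60), Zcwpw1 (0.59), Tnfrsf21, a death receptor (0.59), and Nr4a3, an orphan nuclear receptor induced by antigen (0.54). Bzrap1 had an SE of 0.20 and was no longer called without Control replicate 2, Control replicate 3 or UDCA replicate 3.

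Genes of glucose uptake and glycolysis fell together. Of 30 tested members 25 were called lower, and the other 5 (Eno2, Ldhb, Slc16a1, Pdk3 and Pgm1) were not called. The median log2 fold change of the list was -0.37, beside 0.01 for all tested genes, and 24 to 26 members were called lower with any 1 of the 6 libraries left out. Slc2a3, the glucose transporter GLUT3, was at 312, 390 and 324 CPM in control and 183, 166 and 184 CPM with UDCA, and the groups lay far apart (log2 fold change -0.94, SE 0.09, edgeR adjusted p = 6.44e-08). Aldoc, an aldolase, went from 42.5, 51.8 and 41.3 CPM to 16.8, 13.6 and 18.2 CPM (log2 fold change -1.49, SE 0.12, edgeR adjusted p = 7.38e-09). Aldoa, the aldolase with the higher level of the pair also per kilobase of transcript, fell by less, from 1964, 2134 and 2086 CPM to 1583, 1427 and 1533 CPM (log2 fold change -0.45). Pgk1, phosphoglycerate kinase, fell from 1466, 1624 and 1583 CPM to 1042, 992 and 1077 CPM (log2 fold change -0.59). Slc16a3, the lactate exporter MCT4, fell from 282, 312 and 300 CPM to 196, 177 and 212 CPM (log2 fold change -0.61). Control replicate 2 was the highest library for Slc2a3, Aldoc, Aldoa, Pgk1 and Slc16a3, and UDCA replicate 2 the lowest.

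Targets of hypoxia-inducible factors outside glycolysis showed the same direction. Of 24 tested members 21 were called lower and 3 (Vegfa, Car9 and Slc6a8) were not called. The list median was -0.41, and 18 to 21 members were lower with any 1 library left out. Bnip3l, a receptor for the removal of mitochondria, fell from 148, 174 and 156 CPM to 83.8, 80.4 and 81.4 CPM (log2 fold change -0.96, SE 0.08, edgeR adjusted p = 1.82e-08). Ndrg1 fell from 94.5, 117 and 92.9 CPM to 53.8, 44.7 and 47.3 CPM (log2 fold change -1.06). Mxi1, an antagonist of Myc, went from 95.1, 108 and 101 CPM to 61.7, 56.1 and 68.3 CPM (log2 fold change -0.71), and none of these 3 genes overlapped between the groups. Ddit4, an inhibitor of mTORC1, fell from 143, 162 and 152 CPM to 106, 111 and 109 CPM (log2 fold change -0.48), and Kdm3a, a histone demethylase, fell by 0.41 on the log2 scale. Hif1a itself, the oxygen-regulated subunit, was at 496, 526 and 496 CPM in control and 414, 409 and 428 CPM with UDCA (log2 fold change -0.28, SE 0.04, edgeR adjusted p = 3.88e-05).

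The promoters of these genes were searched for the core of the hypoxia response element, ACGTG on either strand, in the 250 bases before the transcription start (RefSeq, GRCm38.p6). Only genes whose deposited start matched the transcription start of the promoter set exactly were searched. The motif was present in 10 of 22 glycolysis promoters (45.5%) and 10 of 15 promoters of the other hypoxia list (66.7%), and in 22% of 8299 promoters of tested genes. The 2 promoters printed are the called members of each list that hold the motif and had the smallest adjusted p, Pgk1 at chrX:106186850-106187099 on the plus strand and Ddit4 at chr10:59951771-59952020 on the minus strand. Capitals mark each match, which describes the letters and is no measured binding site.
Pgk1: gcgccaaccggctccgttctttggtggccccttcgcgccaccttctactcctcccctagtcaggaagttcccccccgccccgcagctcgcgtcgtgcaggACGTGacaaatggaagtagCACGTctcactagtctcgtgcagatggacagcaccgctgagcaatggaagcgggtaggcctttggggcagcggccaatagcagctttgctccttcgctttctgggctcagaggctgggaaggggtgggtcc
Ddit4: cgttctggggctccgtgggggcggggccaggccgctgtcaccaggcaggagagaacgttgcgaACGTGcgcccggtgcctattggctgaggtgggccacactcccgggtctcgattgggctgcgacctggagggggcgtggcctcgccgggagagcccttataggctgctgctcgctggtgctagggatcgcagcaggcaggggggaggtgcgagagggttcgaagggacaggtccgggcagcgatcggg

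**Figure D2:**
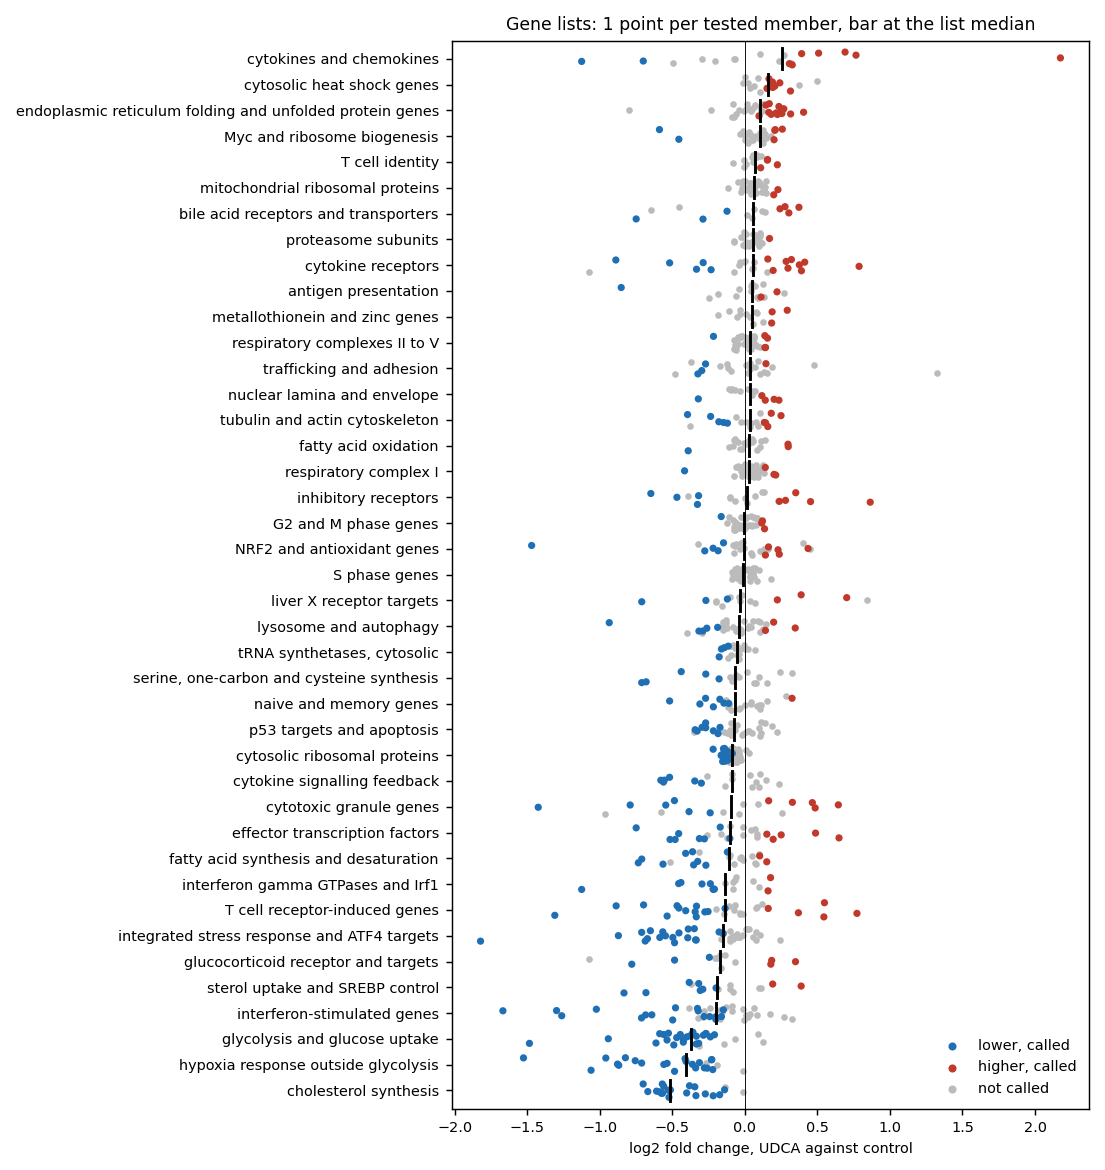
Log2 fold change of UDCA against control for every tested member of 41 gene lists, ordered by list median (black bar), with called members in blue (lower) or red (higher) and members that were not called in grey. The cholesterol synthesis, hypoxia and glycolysis lists lie at the bottom with medians of -0.51, -0.41 and -0.37.

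Cholesterol synthesis had the lowest list median. Of 21 tested enzymes 19 were called lower with UDCA, 2 were not called, and the median log2 fold change was -0.51. With any 1 library left out, 16 to 20 enzymes were called lower. Hmgcs1, an early enzyme of the pathway, was at 415, 452 and 430 CPM in control and 270, 255 and 273 CPM with UDCA (log2 fold change -0.70, SE 0.06, edgeR adjusted p = 1.6e-08). Every UDCA library of Hmgcs1 lay below every control library. Further down the pathway Mvk fell by 0.57, Mvd by 0.67, Fdps by 0.59 and Fdft1, squalene synthase, by 0.52 on the log2 scale. The sterol regulatory element, TCACNCCAC on either strand, was found in 1 of 15 promoters of the list with a matching start, that of Hmgcs1, and in 0.94% of all promoters searched. It is shown as the member with the smallest adjusted p, at chr13:119690101-119690350 on the plus strand of GRCm38.p6, with the match in capitals.
Hmgcs1: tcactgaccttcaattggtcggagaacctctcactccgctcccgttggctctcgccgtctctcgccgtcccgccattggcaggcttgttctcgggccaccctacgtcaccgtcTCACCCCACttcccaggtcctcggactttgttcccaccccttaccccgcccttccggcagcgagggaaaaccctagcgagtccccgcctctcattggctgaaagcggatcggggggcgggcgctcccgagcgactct

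Sterol uptake, its regulators and lipid synthesis moved less uniformly. Of 16 tested genes of sterol uptake and SREBP control 7 were lower and 2 were higher (1 without Control replicate 2, UDCA replicate 1 or UDCA replicate 2). Insig1, which holds SREBP in the endoplasmic reticulum, fell from 153, 159 and 155 CPM to 94.8, 88.6 and 108 CPM (log2 fold change -0.68), and Lpin1, a phosphatidate phosphatase, from 58.9, 64.8 and 55.6 CPM to 35.4, 32.2 and 33.0 CPM (log2 fold change -0.83). Stard4 and Scarb1 fell by 0.38 and 0.31 on the log2 scale, and Npc1, which exports cholesterol from lysosomes, rose by 0.19. Srebf1 was not called (log2 fold change -0.10, SE 0.04, edgeR adjusted p = 0.0785). Of 23 genes of fatty acid synthesis and desaturation 9 were lower, among them the desaturases Scd1 (219, 249 and 238 CPM to 156, 129 and 146 CPM, log2 fold change -0.71) and Scd2 (-0.36), the citrate lyase Acly (-0.35) and the elongase Elovl6 (-0.41). Of 21 genes of fatty acid oxidation 18 were not called, 2 were higher (9.52%, beside 9.18% of all tested genes) and 1 was lower (4.76%, beside 10.7%). Cpt1a, the gate to mitochondrial oxidation, rose from 78.8, 75.5 and 73.8 CPM to 95.8, 97.2 and 87.1 CPM (log2 fold change 0.30, edgeR adjusted p = 0.000111), and Ppargc1b rose as well (0.30). The member called lower was Ppard (log2 fold change -0.39, edgeR adjusted p = 6.85e-05).

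Targets of the liver X receptor, which senses oxysterols, split 3 higher and 3 lower of 16 tested. The sterol exporter gene Abca1 was at 0.774, 1.02 and 0.773 CPM in control and 1.24, 1.18 and 1.78 CPM with UDCA (log2 fold change 0.70, edgeR adjusted p = 0.0188), and it was no longer called by DESeq2, in a fit of the 6 libraries alone, or without Control replicate 1, Control replicate 3 or UDCA replicate 3. Abcg1 was at 27.0, 27.9 and 27.8 CPM in control and 34.2, 33.3 and 29.0 CPM with UDCA (log2 fold change 0.22, edgeR adjusted p = 0.0484). Its call was lost with each library left out except UDCA replicate 3, with size factors of the RLE kind and with a 1 CPM filter. The count of higher members was 1 without any library other than UDCA replicate 3.

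The stress pathways differed in direction. In the integrated stress response, in which the factor ATF4 raises genes of amino acid supply when translation is held back, 19 of 40 tested genes were lower and 21 were not called (median -0.15, 14 to 19 lower with any 1 library left out). Ddit4 was counted here as well as in the hypoxia list and among the glucocorticoid receptor targets. Atf4 fell from 421, 474 and 496 CPM to 372, 350 and 378 CPM (log2 fold change -0.34, SE 0.05, edgeR adjusted p = 6.64e-05). Ddit3, the factor CHOP, fell from 17, 20.1 and 17.3 CPM to 11.8, 11.2 and 10.8 CPM (log2 fold change -0.69), and Trib3, a pseudokinase induced by CHOP, from 64.2, 73.6 and 72.4 CPM to 45.5, 43.5 and 43.1 CPM (log2 fold change -0.67). No UDCA library reached the control range in these 3 genes. Stc2 and Eif4ebp1 fell by 0.59 and 0.55 on the log2 scale. Asns, asparagine synthetase, singled out after its values were seen because it is a standard target of ATF4, was at 133, 154 and 150 CPM and at 155, 143 and 136 CPM, with overlapping groups and no call (log2 fold change -0.01, SE 0.06, edgeR adjusted p = 0.921). Of 20 cytosolic tRNA synthetases 4 were lower, none by more than 0.18 on the log2 scale, and this count was 7 without Control replicate 1, 2 without Control replicate 2 and 1 without UDCA replicate 3.

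Chaperones of the endoplasmic reticulum were higher instead. Of 32 tested genes of folding and the unfolded protein response 14 were called higher and 18 were not called (median 0.11, 12 to 14 higher with any 1 library left out). Calr, the calcium-binding chaperone calreticulin, rose from 1018, 992 and 1067 CPM to 1346, 1411 and 1317 CPM (log2 fold change 0.40, SE 0.04, edgeR adjusted p = 3.45e-07). Hspa5, the chaperone BiP, rose from 695, 712 and 743 CPM to 884, 905 and 887 CPM (log2 fold change 0.32), with each UDCA library above each control library. Dnajc3, Pdia6 and Hsp90b1 rose by 0.26, 0.27 and 0.22 on the log2 scale. Xbp1, a transcription factor of this response, overlapped between the groups (log2 fold change 0.12, edgeR adjusted p = 0.147). In the cytosol 8 of 17 heat shock genes were higher, among them Hsph1 (157, 152 and 165 CPM to 197, 192 and 201 CPM, log2 fold change 0.31), Dnaja1 (0.24), Chordc1 (0.21) and Hspa8 (0.19). The count was 4 without Control replicate 1 and 5 without Control replicate 2 or UDCA replicate 2.

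The NRF2 and antioxidant list was mixed, with 5 of 26 higher and 5 lower. Gclm and Gclc, the subunits of the enzyme that starts glutathione synthesis, rose by 0.44 and 0.24 on the log2 scale and the thioredoxin reductase Txnrd1 by 0.23. Osgin1 fell from 2.51, 2.97 and 2.13 CPM to 1.14, 0.847 and 0.735 CPM (log2 fold change -1.47), and Gpx4, which removes lipid peroxides, fell by 0.28. The metallothioneins Mt1 and Mt2 overlapped between the groups and were not called (log2 fold changes 0.01 and 0.08, edgeR adjusted p = 0.951 and 0.48). Reads of these related genes may in part be divided between them.

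Few bile acid receptors had enough counts to test. Of 32 receptor and transporter genes 14 were tested, and Nr1h4 and Gpbar1 had no count in any of the 6 libraries. An expected count of up to about 3 can still give a zero in a single library, so a low level could be missed. Vdr was at 2.23, 3.16 and 2.60 CPM in control and 3.23, 2.60 and 2.41 CPM with UDCA and was not called (log2 fold change 0.05, SE 0.16, edgeR adjusted p = 0.869). The retinoid X receptor gene Rxra, a partner of several nuclear receptors, rose from 22.1, 19.4 and 22.4 CPM to 26.3, 26.8 and 25.8 CPM (log2 fold change 0.30, edgeR adjusted p = 0.00333). The multidrug exporter gene Abcb1b rose from 81.5, 80.1 and 82.8 CPM to 106, 108 and 103 CPM (log2 fold change 0.37, edgeR adjusted p = 5.27e-08). Its paralog Abcb1a was called too (0.24) but not without Control replicate 3, UDCA replicate 1 or UDCA replicate 2, and reads of the pair may be divided between them. In all 4 of the 14 were higher and 3 lower. The members called lower were Rora (log2 fold change -0.75, edgeR adjusted p = 0.012), S1pr2 (-0.29) and Rxrb (-0.12). The higher count was 2 without UDCA replicate 2 and the lower count 1 without Control replicate 2.

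The glucocorticoid receptor gene Nr3c1 and its targets did not share a direction, with 3 of 13 tested higher and 3 lower. Nr3c1, Fkbp5 and Tle1 rose by 0.18, 0.18 and 0.35 on the log2 scale. Tsc22d3, the leucine zipper protein GILZ, fell from 25.5, 28.4 and 24.0 CPM to 17.3, 16.3 and 11.6 CPM (log2 fold change -0.78, SE 0.13, edgeR adjusted p = 0.00017), with UDCA replicate 3 the lowest.

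Interferon-stimulated genes were lower in part. Of 38 tested members 17 were called lower and 21 were not called (median -0.20). The count was 9 without Control replicate 2 and 11 without UDCA replicate 3. Ifit1, an antiviral RNA-binding protein, was at 8.49, 12.4 and 8.98 CPM in control and 4.41, 4.21 and 3.46 CPM with UDCA (log2 fold change -1.30, SE 0.18, edgeR adjusted p = 7.07e-06). Rsad2, viperin, fell from 2.45, 3.90 and 2.57 CPM to 1.18, 1.48 and 1.01 CPM (log2 fold change -1.26). Control replicate 2 was the highest library for both, and the groups did not overlap. The more abundant members Oas3, Dtx3l and Dhx58 fell by 0.33, 0.24 and 0.48 on the log2 scale. Of 17 GTPases and related genes induced by interferon gamma 8 were lower, among them Gbp5 (119, 132 and 121 CPM to 89.6, 91.0 and 94.1 CPM, log2 fold change -0.44), Gbp2 (-0.46) and the chemokine gene Cxcl10 (2.20, 3.75 and 1.99 CPM to 1.08, 1.27 and 1.26 CPM, log2 fold change -1.13). Members called higher were Gbp6 and Irgm1, whose calls were both lost without Control replicate 2, Control replicate 3, UDCA replicate 1 or UDCA replicate 2. H2-Ab1, a class II chain, fell from 30.4, 34.9 and 29.4 CPM to 18.4, 16.97 and 16.9 CPM (log2 fold change -0.85), while 15 of 18 antigen presentation genes were not called.

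The interferon-stimulated response element, 2 copies of GAAA separated by any 2 bases, on either strand, was present in 11 of 22 promoters of the interferon-stimulated list (50%) and 2.71% of all 8299 searched. The promoter of Ifit1, the member with a match and the smallest adjusted p, lies at chr19:34640639-34640888 on the plus strand of GRCm38.p6. Capitals mark the 2 matches, both on the opposite strand.
Ifit1: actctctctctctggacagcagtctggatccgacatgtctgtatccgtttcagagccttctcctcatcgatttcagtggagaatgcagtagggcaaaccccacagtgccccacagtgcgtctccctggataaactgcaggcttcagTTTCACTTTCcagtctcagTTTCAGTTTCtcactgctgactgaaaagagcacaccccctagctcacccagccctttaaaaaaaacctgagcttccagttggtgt

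Of 18 tested cytokine and chemokine genes 7 were called higher, among them Ifng, Tnf and Xcl1, 2 were called lower and 9 were not called (median 0.25, 5 to 7 higher with any 1 library left out). Ifng, interferon gamma, was at 3.56, 5.48 and 4.25 CPM in control and 6.96, 8.17 and 7.45 CPM with UDCA (log2 fold change 0.77, SE 0.16, edgeR adjusted p = 0.00152). Tnf rose from 39.0, 35.7 and 39.5 CPM to 45.7, 44.9 and 50.8 CPM (log2 fold change 0.31, edgeR adjusted p = 0.00196), and the death ligand gene Tnfsf10, TRAIL, from 31.0, 27.1 and 26.5 CPM to 40.2, 40.8 and 39.1 CPM (log2 fold change 0.51). The groups did not overlap in these genes. Xcl1, a chemokine that draws dendritic cells, was low in control, at 1.05, 0.744 and 0.690 CPM, and reached 4.05, 4.90 and 2.17 CPM with UDCA (log2 fold change 2.17, SE 0.28, edgeR adjusted p = 3.66e-06). Ccl3 rose by 0.69 on the log2 scale from a control mean of 2.09 CPM. The members called lower were Lif, from 98.8, 103 and 107 CPM to 60.8, 54.3 and 75.5 CPM (log2 fold change -0.70, edgeR adjusted p = 0.000414), and Cxcl10. Il2 had at most 0.5 counts in any of the 6 libraries.

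Cytotoxic granule genes divided. Of 18 members 5 were higher and 6 lower, and each direction came to 3 without Control replicate 3 or UDCA replicate 2; without UDCA replicate 1 the higher count, and without Control replicate 2 the lower count, was 3. Prf1, perforin, fell from 25.2, 30.9 and 31.8 CPM to 19.9, 18.2 and 22.4 CPM (log2 fold change -0.55, SE 0.11, edgeR adjusted p = 0.000587). Gzmb, granzyme B, far above perforin also per kilobase of transcript, was at 3611, 3696 and 4045 CPM in control and 3052, 2998 and 3567 CPM with UDCA (log2 fold change -0.24, edgeR adjusted p = 0.049). UDCA replicate 3 lay close below the lowest control library, and the call of Gzmb was lost in DESeq2 and without Control replicate 2, Control replicate 3, UDCA replicate 1 or UDCA replicate 2. Gzmc fell by 0.49. Gzma, granzyme A, went the other way, from 17.9, 15.6 and 18.8 CPM to 22.8, 26.9 and 23.4 CPM (log2 fold change 0.48, edgeR adjusted p = 0.000794). Ctsw, a cathepsin of cytotoxic cells, and Nkg7, a granule membrane protein, rose by 0.46 and 0.33 on the log2 scale.

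Genes induced by the T cell receptor were lower more often than higher, 13 against 5 of 29 tested (median -0.14). The higher count, which included Egr3 and Nr4a3, was 3 without Control replicate 2 and 2 without Control replicate 3, UDCA replicate 1 or UDCA replicate 2. Irf4, a transcription factor whose level follows receptor signal strength, was at 352, 368 and 365 CPM in control and 227, 211 and 231 CPM with UDCA. The groups did not overlap (log2 fold change -0.70, SE 0.04, edgeR adjusted p = 4.31e-12). Rgs1, a regulator of chemokine signalling, fell by 0.89, Icos, a costimulatory receptor, by 0.54 and Tnfrsf18, GITR, by 0.34 on the log2 scale. Myc, which drives growth of activated T cells, fell from 458, 501 and 517 CPM to 346, 336 and 396 CPM (log2 fold change -0.46, SE 0.07, edgeR adjusted p = 2.32e-05). In the feedback arm of cytokine and kinase signalling 6 of 17 genes were lower, among them Dusp6 (-0.56), Spred1 (-0.58), Spred2 (-0.56), Dusp4 (-0.35) and the kinase Pim2 (-0.52).

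Inhibitory receptors and their relatives split by gene. Ctla4, a brake on costimulation, fell from 328, 355 and 326 CPM to 210, 209 and 224 CPM (log2 fold change -0.65, SE 0.06, edgeR adjusted p = 4.34e-08), and Lag3 from 106, 117 and 106 CPM to 94.0, 91.2 and 77.4 CPM (log2 fold change -0.33). Cd160, Cd96 (0.35) and Cd244 (0.45) were higher. Pdcd1, PD-1, overlapped between the groups at 22.3, 24.2 and 22.7 against 25.6, 28.2 and 21.2 CPM (log2 fold change 0.12, edgeR adjusted p = 0.398), as did Havcr2, TIM-3 (edgeR adjusted p = 0.99). In all 5 of 19 were higher and 4 lower, and the higher count was 3 without UDCA replicate 2.

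Among naive and memory genes 7 of 24 were lower and Eomes, a transcription factor of memory and effector cells, was higher (log2 fold change 0.33, edgeR adjusted p = 0.00375). The interleukin 7 receptor gene Il7r fell from 123, 130 and 120 CPM to 83.1, 84.2 and 93.1 CPM (log2 fold change -0.52, SE 0.05, edgeR adjusted p = 1.57e-07), and the survival gene Bcl2 and the chromatin organiser Satb1 fell by 0.22 and 0.14. Tcf7, the factor TCF1, was at 121, 116 and 118 CPM in control and 157, 172 and 102 CPM with UDCA, with UDCA replicate 3 below and the others above all control libraries (edgeR adjusted p = 0.146). Klf2 was not called (log2 fold change 0.04, edgeR adjusted p = 0.866). Without UDCA replicate 3 a second gene of the list was called higher.

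Of 23 effector transcription factors 5 were higher and 8 lower. Ikzf3, Aiolos, rose from 68.0, 60.8 and 60.2 CPM to 88.4, 93.7 and 82.5 CPM (log2 fold change 0.49, edgeR adjusted p = 2.18e-06) and Hic1 by 0.65. Prdm1, Blimp-1, fell from 30.3, 30.6 and 30.7 CPM to 21.7, 20.97 and 24.1 CPM (log2 fold change -0.46, edgeR adjusted p = 3.76e-06), and Nfil3 and Bhlhe40 by 0.52 and 0.31. The higher count was 2 without Control replicate 3 and 3 without UDCA replicate 2, and the lower count was 5 without Control replicate 2. Cytokine receptors were higher in 9 and lower in 5 of 24. Il2ra, the high-affinity subunit of the interleukin 2 receptor, fell from 2172, 2324 and 2424 CPM to 1760, 1676 and 2056 CPM (log2 fold change -0.33, edgeR adjusted p = 0.00247), Tnfrsf8, CD30, by 0.89 and Il4ra by 0.29. The interleukin 18 receptor genes Il18r1 and Il18rap rose by 0.41 and 0.32, Tgfbr1 by 0.38, Ifnar2 by 0.39 and Il2rg, the common gamma chain, by 0.19.

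Growth and housekeeping lists changed by small amounts, although p53 targets and cytosolic ribosomal protein genes were called lower more often than all tested genes. In edgeR 0 of 33 S phase genes were called in either direction; 2 were higher and 1 lower at an unadjusted p under 0.05, DESeq2 called 1 higher and 0 lower, and 1 was called higher without Control replicate 1 or UDCA replicate 3. Of 33 G2 and M phase genes 29 were not called. Of 31 p53 targets and apoptosis genes 8 were lower (25.8%, beside 10.7% of all tested genes, list median -0.08). Among them were the cell cycle inhibitor Cdkn1a (-0.33) and the death gene Bbc3 (-0.34). Respiratory complex I had 33 of 37 and complexes II to V 33 of 38 members that were not called. Cytosolic ribosomal protein genes were lower in 18 of 76 cases (23.7%, list median -0.09), none by more than 0.22 on the log2 scale. But this count was 39 without Control replicate 1, 10 without Control replicate 2, 7 without Control replicate 3 and 8 without UDCA replicate 3. Lmna, lamin A, fell from 7.43, 6.94 and 6.55 CPM to 5.71, 5.41 and 5.60 CPM (log2 fold change -0.32, edgeR adjusted p = 0.00512).

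UDCA was also compared with each of 3 related acids at the same dose, with no control library in the contrast. The control libraries still entered the fit and its estimate of spread. The 3 comparisons share the UDCA libraries, and p-values were adjusted over genes within each and not over the 3. Genes of sterol export, interferon response and stress, lamin A and granzymes differed. Against LCA, from which it differs by the additional hydroxyl group, 1934 genes were higher with UDCA (14.8% of 13044) and 1570 lower (12%). Against IsoLCA 801 were higher (6.14%) and 983 lower (7.54%), and against DehydroLCA 629 were higher (4.82%) and 866 lower (6.64%). The last comparison held 929 calls in all without UDCA replicate 2, 982 without DehydroLCA replicate 2 and 966 without DehydroLCA replicate 3, beside 1495 with every library.

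**Figure D3:**
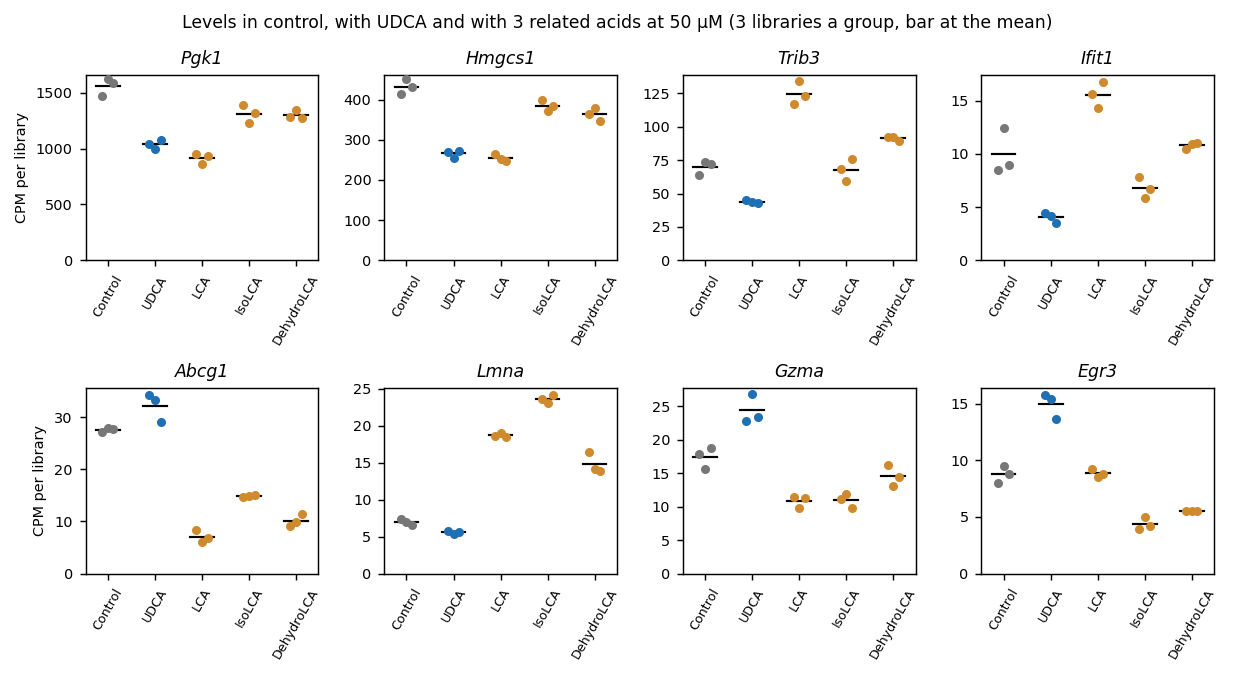
CPM of 8 genes in the 3 libraries (points, mean as a bar) of control, UDCA, LCA, IsoLCA and DehydroLCA, on linear axes from 0. Abcg1 and Egr3 lie higher with UDCA than with any other acid shown, Trib3, Ifit1 and Lmna lower, while Pgk1 and Hmgcs1 lie near the LCA libraries.

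Abcg1 separated UDCA from all 3 acids. It was at 8.28, 5.97 and 6.88 CPM with LCA, 14.8, 14.8 and 15.2 CPM with IsoLCA and 9.07, 9.88 and 11.4 CPM with DehydroLCA, all below the 29.0 to 34.2 CPM of the UDCA libraries. The log2 difference was 2.19 against LCA (SE 0.09, edgeR adjusted p = 8.69e-15), 1.11 against IsoLCA and 1.67 against DehydroLCA. Compared with control, the log2 fold change of Abcg1 was 0.22 with UDCA and -1.96 with LCA. Of 16 liver X receptor targets 11 were higher with UDCA than with LCA (median 0.37, beside -0.01 for all genes), 4 than with IsoLCA and 6 than with DehydroLCA, and the rest were not called. Lmna was at 18.7, 19.03 and 18.5 CPM with LCA, 23.6, 23.1 and 24.2 CPM with IsoLCA and 16.4, 14.1 and 13.9 CPM with DehydroLCA, against 5.41 to 5.71 CPM with UDCA. The log2 differences were -1.75, -2.09 and -1.41 (edgeR adjusted p = 4.02e-15, 3.71e-17 and 1.46e-12). Compared with control, the log2 fold change of Lmna was -0.32 with UDCA and 1.43 with LCA.

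Cholesterol synthesis, glycolysis and hypoxia genes ordered the acids differently. Against IsoLCA 15 of 21 cholesterol synthesis genes, 16 of 30 glycolysis genes and 12 of 24 hypoxia genes were lower with UDCA, and against DehydroLCA 14, 19 and 15 were, and the other members were not called. Against LCA 9, 15 and 12 were higher with UDCA, and 3 hypoxia genes were lower (12.5%, beside 12% of all tested genes). Hmgcs1 did not pass the test against LCA (254 ± 9.05 CPM, SD, n = 3), with a log2 difference of 0.07 and a 95% interval of -0.06 to 0.19, but was lower than with IsoLCA (-0.53, edgeR adjusted p = 4.18e-07) and DehydroLCA (-0.45, edgeR adjusted p = 8.53e-06). Pgk1 was higher than with LCA by 0.18 (edgeR adjusted p = 0.0145) and lower than with IsoLCA and DehydroLCA by log2 differences of -0.34 and -0.33. Aldoc followed with 0.57, -0.85 and -0.79.

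Most genes of the integrated stress response and most interferon-stimulated genes were lower with UDCA than with LCA, and most endoplasmic reticulum folding and unfolded protein genes were higher. Of 40 integrated stress response genes 34 were lower and 2 higher (median -0.50), and 17 and 28 were lower than with IsoLCA and DehydroLCA. Of 32 genes of endoplasmic reticulum folding and the unfolded protein response 18 were higher and 4 lower against LCA (median 0.20), 6 and 2 against IsoLCA, and 10 and 3 against DehydroLCA. The lower shares against LCA (12.5%) and IsoLCA (6.25%) were near those of all tested genes (12% and 7.54%). Trib3 was at 117, 135 and 123 CPM with LCA, 68.7, 59.4 and 75.6 CPM with IsoLCA and 92.1, 92.3 and 89.4 CPM with DehydroLCA, so that no library of these acids overlapped the UDCA libraries (log2 differences -1.50, -0.63 and -1.05). Cth, which makes cysteine, differed by -2.52 from LCA (SE 0.18, edgeR adjusted p = 2.48e-10). Of 38 interferon-stimulated genes 26 were lower and 1 higher against LCA (median -0.89), 16 and 2 against DehydroLCA, and 4 and 3 against IsoLCA. The shares against IsoLCA (10.5% lower and 7.89% higher, median -0.01) were near those of all tested genes (7.54% and 6.14%). Ifit1 differed by -1.95 from LCA, -1.42 from DehydroLCA and -0.75 from IsoLCA. Isg15, a ubiquitin-like modifier, was lower than with LCA (-1.88, edgeR adjusted p = 3.52e-10) and DehydroLCA (edgeR adjusted p = 5.14e-05), but did not pass the test against IsoLCA (-0.22, 95% interval -0.55 to 0.10).

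Of 18 cytotoxic granule genes 6 were higher and 4 lower with UDCA than with LCA, and against IsoLCA, as against DehydroLCA, 6 were higher, 1 was lower and 11 were not called. Of 23 effector transcription factors 10 were higher and 3 lower against LCA, 9 and 0 against IsoLCA, and 4 and 2 against DehydroLCA. Lower shares of these factors against LCA (13%) and DehydroLCA (8.7%) were near those of all tested genes (12% and 6.64%). So were those of granule genes against IsoLCA (5.56%, beside 7.54%) and DehydroLCA (5.56%, beside 6.64%). Single members differed from all 3 acids. Gzma was at 11.5, 9.81 and 11.2 CPM with LCA, 11.2, 11.9 and 9.80 CPM with IsoLCA and 16.2, 13.04 and 14.4 CPM with DehydroLCA, all below the UDCA libraries (log2 differences 1.17, 1.16 and 0.75). Gzmc was lower with UDCA in each case (-1.53, -0.72 and -0.79). Egr3 was at 9.26, 8.55 and 8.76 CPM with LCA, 3.92, 4.99 and 4.16 CPM with IsoLCA and 5.49, 5.57 and 5.57 CPM with DehydroLCA, and the differences were 0.76, 1.79 and 1.43. Rap1gap2, a GTPase-activating protein, differed by 1.55, 1.43 and 0.68, and Acp5, an acid phosphatase, was among the largest differences from LCA and IsoLCA (1.29 and 1.34). The metallothioneins Mt1 and Mt2 differed from IsoLCA by -1.32 and -1.75 (edgeR adjusted p = 4.1e-14 and 5.23e-15), while neither was called between UDCA and control (0.01 and 0.08). Respiratory chain genes were higher with UDCA than with LCA in 23 of 37 members of complex I and 28 of 38 of complexes II to V, led by Uqcrh (0.63), and so were 14 of 33 S phase and 16 of 33 G2 and M phase genes. Against IsoLCA these counts were 1, 2, 2 and 1 and against DehydroLCA 2, 6, 1 and 3 in the same order, near or below the share of all genes except for complexes II to V against DehydroLCA (15.8%) and G2 and M phase genes against DehydroLCA (9.09%). Irf4 did not pass the test against IsoLCA (-0.04, 95% interval -0.11 to 0.04) or DehydroLCA (-0.08, 95% interval -0.16 to -0.01, edgeR adjusted p = 0.163).

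**Figure D4:**
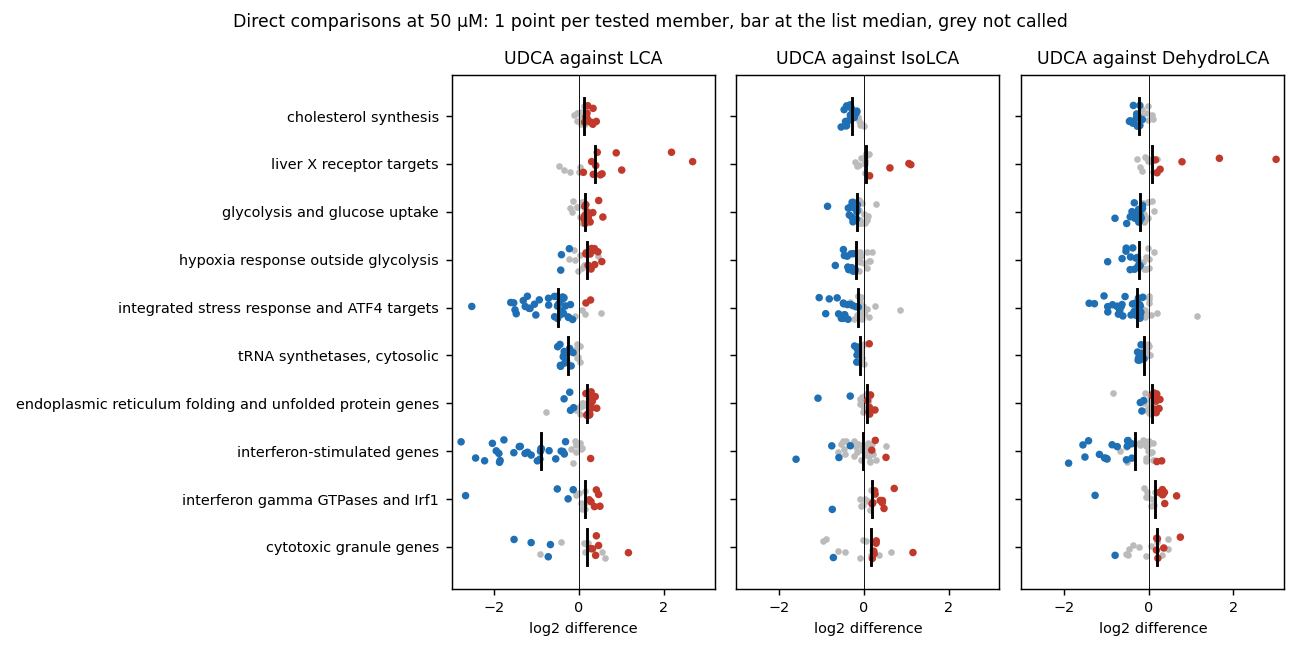
Log2 difference of UDCA from LCA, IsoLCA and DehydroLCA for each tested member of 10 gene lists, with called members in red (higher with UDCA) or blue (lower), the rest in grey and the list median as a bar. The medians of the cholesterol synthesis, glycolysis and hypoxia lists lie right of 0 against LCA (0.13, 0.14 and 0.20) and left of 0 against the other acids, with single members on the other side, and interferon-stimulated genes reach furthest left against LCA.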

How the data were processed

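The authors deposited 1 table of 24537 genes in expected counts (reads over exons on mm10, HOMER, not normalized, per the file headers); 29.43% of values were not whole and were rounded, those ending in 0.5 upward. STAR, DESeq2 and GRCm38 are also named, without versions, per the submitters' processing notes, and no strand option is given in the header. Reads of near-identical or overlapping genes, and of the 393 genes with more than 1 copy, may be divided or mixed. Libraries came from total RNA by an ultra-low input protocol, per the labels.

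All 24 libraries (25998051 to 41024340.5 counts) were fitted with edgeR 4.0.16 in R 4.3.3 (TMM, filterByExpr, quasi-likelihood test, 1 coefficient per group), which kept 13044 genes. Genes with an adjusted p under 0.05 were called. CPM use TMM library sizes, and intervals are at 95%. Replicates differed by more than sampling noise. Same-numbered replicates of UDCA and control did not deviate together (r of -0.044, 0.001 and -0.058). Between UDCA and the other acids r ran from -0.127 (LCA replicate 2) to 0.267 (IsoLCA replicate 3).

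The members and lists were chosen with earlier results of these data known. Lists share members, such as Ddit4, Hif1a, Bhlhe40 and Scd1, so counts of different lists are not independent. Named genes are the 12 largest rises and falls with at least 10 CPM and no overlap, the up to 5 called members of a list with the smallest adjusted p in each direction, every tested member of small lists, and a fixed set; for the other acids the 6 largest and up to 3 per list. Members that were not called, and Asns, were named after their values were seen. A few genes meeting these criteria are not reported here. The design had assumed whole counts, and the same test was used. Alternatives were RLE factors, no filter, a 1 CPM filter, a replicate block, DESeq2 1.42.0, the 6 libraries alone, each replicate left out and, added after seeing the data, rounding down and a correction for GC content and length. IsoAlloLCA, TCA and TCDCA entered the fit and were not compared.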

Additional observations from a re-analysis of the deposited data

Results flagged for a closer look

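UDCA and LCA moved 46 of the 478 named genes in opposite directions against control, each direction called by edgeR, and the direct difference between the acids was called as well. Over all 13044 tested genes 155 met these criteria (1.19%); the named genes were largely chosen because they were called, so their share of 9.62% is a description. The comparisons with control share the control libraries. The direct difference, given here on the log2 scale as UDCA minus LCA, leaves them out of its contrast. They still entered the shared filter, normalization and estimate of spread. In 20 genes UDCA was above LCA: Abca1 (2.68), Abcg1 (2.19), Hic1 (2.07), Ccl3 (1.61), Gzma (1.17), Mylip (0.88), Eomes (0.58), Cpt1a (0.52), Gata3 (0.48), Tbx21 (0.44), Itgb2 (0.43), Pdia3 (0.42), Ctsd (0.38), Cox5a (0.35), Uqcrb (0.32), Cst3 (0.30), Actb (0.27), Elovl5 (0.26), Cox5b (0.25), Hmmr (0.22). These include sterol exporters (Abca1, Abcg1), granzyme A and the transcription factors Eomes and Tbx21. In 26 genes UDCA was below LCA: Ifit3b (-2.78), Cxcl10 (-2.67), Cth (-2.52), Oasl1 (-2.43), Oasl2 (-2.22), Aldh1l2 (-1.95), Ifit1 (-1.95), Isg15 (-1.88), Rsad2 (-1.87), Lmna (-1.75), Gzmc (-1.53), Trib3 (-1.50), Slc7a3 (-1.48), Slc1a4 (-1.05), Slc15a1 (-0.94), Ddit3 (-0.93), Dhx58 (-0.89), Cd69 (-0.84), Pdcd1lg2 (-0.76), Soat2 (-0.73), Oas3 (-0.70), Gadd45b (-0.53), Lars (-0.50), Sqstm1 (-0.46), Sars (-0.43), Cars (-0.43). Interferon-stimulated genes (Ifit3b, Oasl1, Oasl2, Ifit1, Isg15, Rsad2, Dhx58 and Oas3) and genes of amino acid supply (Cth, Aldh1l2, Slc7a3 and Slc1a4) make up much of this group. The named genes came largely from lists chosen with earlier results known, so this make-up follows in part from the lists. The make-up of the 155 genes was not examined. Abca1, Abcg1, Cox5a and Elovl5 are among those whose call against control was lost under several alternatives.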

How the results depend on the processing

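No called named gene changed direction under any alternative run. Counts of list members were not checked for direction, and the balance within a list could move. G2 and M phase genes called higher than control, 3 in the main fit, fell to 0 in some runs, while at least 1 stayed lower. The 2599 calls of UDCA against control numbered 2528 with RLE factors, 2348 without a filter, 2560 with a 1 CPM filter, 2423 in DESeq2, 2159 with the 6 libraries alone, 2739 with the GC and length correction and 2600 with values ending in 0.5 rounded down. With each replicate left out they ran from 1692 (without Control replicate 2) to 2219, and 1665 of the 1692 were among the 2599; the cause was not tested beyond the smaller number of libraries. Calls ran from 2487 to 3338 against LCA, from 1259 to 1649 against IsoLCA and from 929 to 1261 against DehydroLCA, where 982 and 966 were called without DehydroLCA replicates 2 and 3. With the replicate number as a block 2813, 3754, 1956 and 1616 genes were called against control, LCA, IsoLCA and DehydroLCA. Without the block these were 2599, 3504, 1784 and 1495. The labels do not tell whether same-numbered libraries share more than a number. The block moved no count of all calls by over 1.5 times. With it Myc and ribosome biogenesis genes called higher went from 4 to 10. Cytosolic ribosomal protein genes called lower were 30 in DESeq2, 9 with the 6 libraries alone and 33 with the GC and length correction, beside 18. With 3 libraries a group and a common coefficient of variation of 4.41%, small fold changes of abundant genes pass the test, while genes under about 1 CPM are measured with wide errors and many bile acid receptors could not be tested.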

Other observations

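Of 34 lysosome and autophagy genes 26 were not called between UDCA and control, 3 were higher (8.82%, beside 9.18% of all tested genes) and 5 lower (14.7%, beside 10.7%), shares near those of all genes. Wipi1, an early autophagy protein, fell from 2.73, 2.66 and 2.10 CPM to 0.947, 1.603 and 1.33 CPM (log2 fold change -0.94, edgeR adjusted p = 0.00333), and Tfeb, a transcription factor of lysosomal genes, was higher by 0.35. The higher count was 1 without Control replicate 1, Control replicate 2, UDCA replicate 1 or UDCA replicate 2 and 5 without UDCA replicate 3, and the lower count was 8 without Control replicate 1. Among cytoskeletal genes 5 of 19 were higher and 5 lower. Actg1, a cytoplasmic actin, rose by 0.25 on the log2 scale, while Tubb6, a tubulin, and Tmsb4x, which binds free actin, fell by 0.40 and 0.24. The higher count was 1 without Control replicate 2 and 2 without UDCA replicate 2.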
